A study of Mus musculus with 20 samples.

Results

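The members described here are 33 genes of endoplasmic reticulum (ER) folding and stress. They were taken from the 17148 genes listed in both deposited count tables by matching the gene symbol to a list of ER chaperones, genes of the ATF6, XBP1 and PERK branches, and genes of ER-associated degradation. All 33 were found. RNA was sequenced from frontal cortex and hippocampus of wild-type (Ncs1+/+) and Ncs1-/- mice on the C57Bl6/J background, 5 libraries for each genotype and region and 20 in all. The product of Ncs1 is neuronal calcium sensor 1, which binds calcium and acts in neurons. Of the mice, neither age nor sex nor the way the Ncs1 allele was made is stated in the labels used here. Whether the 5 libraries of a group are 5 mice is not stated, so the p-values measure the spread between these libraries, which may be technical.

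Proteins that enter the secretory pathway fold in the ER with the help of chaperones and disulfide isomerases. When unfolded proteins build up there, the membrane sensors ATF6, IRE1 (Ern1) and PERK (Eif2ak3) start the unfolded protein response, in which ATF6 and spliced XBP1 raise chaperones and degradation genes, while PERK slows translation and raises ATF4 and its targets. The ER is also the main calcium store of a neuron, and several of its chaperones, among them calreticulin (Calr) and BiP (Hspa5), bind that calcium.

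The promoters are shown first, because the response is classically read out through short promoter elements and the members were compared by how they moved together. The promoter of 29 of the 33 members was found in RefSeq (GRCm38.p6), from 250 bases before to 50 bases after the start. The promoters of Hyou1, Manf, Atf6 and Derl1 were not among them. The ER stress response element, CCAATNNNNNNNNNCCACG on either strand, bound by ATF6 and XBP1, was found in 9 of 29 members (31%), against 0.137% of 27025 promoters of the same length. These members were Hspa5, Hsp90b1, Calr, Canx, Dnajc3, Creld2, Pdia6, Syvn1 and Derl3. Windows with the element in capitals and 20 bases on each side are given 5′ to 3′ on the strand of the gene, so that a match on the other strand reads as its reverse complement. The first window is that of Hspa5, the next 3 are from genes whose level varied with that of Hspa5 among libraries of both regions, and the others from genes for which it did so in 1 region or neither:
Hspa5 chr2:34772005-34772063 (plus strand): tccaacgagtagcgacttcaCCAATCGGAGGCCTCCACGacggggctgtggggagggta
Dnajc3 chr14:118937807-118937865 (plus strand): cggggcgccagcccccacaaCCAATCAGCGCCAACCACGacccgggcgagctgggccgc
Creld2 chr15:88819500-88819558 (plus strand): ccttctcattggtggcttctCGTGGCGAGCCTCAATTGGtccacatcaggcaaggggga
Pdia6 chr12:17266471-17266529 (plus strand): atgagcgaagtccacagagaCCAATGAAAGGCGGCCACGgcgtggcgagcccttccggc
Hsp90b1 chr10:86705618-86705676 (minus strand): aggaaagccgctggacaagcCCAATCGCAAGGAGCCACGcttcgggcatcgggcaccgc
Hsp90b1 chr10:86705513-86705571 (minus strand): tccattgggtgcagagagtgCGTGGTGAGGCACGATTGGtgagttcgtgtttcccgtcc
Calr chr8:84847055-84847113 (minus strand): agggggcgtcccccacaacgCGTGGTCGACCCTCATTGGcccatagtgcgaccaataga
Canx chr11:50325780-50325838 (minus strand): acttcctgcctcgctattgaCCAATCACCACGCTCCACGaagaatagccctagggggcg
Syvn1 chr19:6046512-6046570 (plus strand): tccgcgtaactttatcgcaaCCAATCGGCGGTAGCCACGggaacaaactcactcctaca
Derl3 chr10:75893222-75893280 (plus strand): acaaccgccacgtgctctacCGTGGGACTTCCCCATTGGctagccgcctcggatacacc
The element ended 47 bases before the start in Hspa5. Hsp90b1 held 2 copies, and each of the other genes shown held 1.

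The second form of this element, ATTGGNCCACG, was found in 2 of 29 members (6.9%), Dnajb11 and Herpud1, against 0.0444% of all promoters. The ATF4 and CHOP element TGATGNAA was found in 4 of 29 members (13.8%), Trib3, Chac1, Asns and Herpud1, against 4.51% of all promoters. The XBP1 element TGACGTGG was found in 0 of 29 members, against 0.714% of all promoters. Herpud1, whose product serves ER-associated degradation, held the second form and the ATF4 element, and Asns, the asparagine synthetase gene, held the ATF4 element close to its start. Their windows are shown for comparison with the chaperone promoters:
Herpud1 chr8:94386357-94386407 (plus strand): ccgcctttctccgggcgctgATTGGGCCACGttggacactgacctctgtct
Herpud1 chr8:94386297-94386344 (plus strand): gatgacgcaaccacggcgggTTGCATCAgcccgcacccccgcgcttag
Asns chr6:7693210-7693252 (minus strand): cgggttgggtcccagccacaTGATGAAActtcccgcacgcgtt
A match is a description of the letters and shows no binding.

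The libraries held 16.6 to 34.6 M counts, with a median of 21.0 M. Levels are given in CPM, a gene's counts per M counts of its library, on 1 trimmed-mean scale over all 20 libraries. In cortex Ncs1 itself ranged from 351 to 387 CPM in the wild type and from 255 to 265 CPM in the knockout, and in hippocampus from 427 to 471 and from 279 to 329 CPM. Knockout libraries lay below every wild-type library of their region but kept 70.4% and 68.1% of the wild-type mean. Neuronal markers were high in every library, and the list of hippocampal subfield markers summed to 476 to 755 CPM in hippocampus against 117 to 183 CPM in cortex. Striatal markers summed to 877 to 1496 CPM in cortex against 111 to 156 CPM in hippocampus. Ttr, the defining transcript of choroid plexus, passed 100 CPM in 4 libraries, knockout cortex 1 at 207 CPM, wild-type hippocampus 4 at 2000 CPM, and knockout hippocampus 2 and 4 at 3119 and 319.6 CPM. It was at 18.3 CPM or less in the other 16, and the counts of calls and of relations with Hspa5 are also given without these 4. The cortex libraries carry 1 lane name and the hippocampus libraries another, and each region has its own table, so region, lane and table cannot be told apart. In bulk tissue a lower level from fewer cells of a type and one from less RNA per cell cannot be told apart.

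Levels between genes were compared per kilobase of exons. The highest levels were those of 4 of the 11 chaperones, Calr, Canx, Hsp90b1 and Hspa5. In wild-type cortex Calr, a calcium-binding lectin chaperone, was at 113 ± 8.61 CPM per kb (SD, n = 5). Calnexin (Canx), its membrane-bound relative, was at 94.5 ± 1.32, GRP94 (Hsp90b1) at 82.2 ± 5.81 and Hspa5, the BiP chaperone that also holds the sensors inactive, at 75.3 ± 7.73 CPM per kb (SD, n = 5 each). The ranges of Hsp90b1 and Hspa5 overlapped. Among the disulfide isomerases Pdia3, which works with Calr and Canx, was at 54.4 ± 1.43 CPM per kb in wild-type cortex, and P4hb at 34.8 ± 0.922 (SD, n = 5 each). Of the sensors, Atf6 was at 15.8 ± 1.80 CPM per kb, close to the chaperone Hyou1 at 15.9 ± 0.691 (SD, n = 5 each). Eif2ak3 at 5.39 ± 0.382 and Ern1 at 0.820 ± 0.117 CPM per kb were lower (SD, n = 5 each). The factors Atf4 and Xbp1 stood at 39.5 ± 1.64 and 26.1 ± 1.58 CPM per kb. Trib3, a pseudokinase induced by ATF4 and CHOP, was close to the detection limit with 2 to 21 counts per library. Derl3, a derlin of secretory tissues, had 6 to 21 counts per library. Ddit3, which encodes the pro-apoptotic factor CHOP, was at 8.61 ± 0.323 CPM per kb in wild-type cortex (SD, n = 5).

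**Figure D1:**
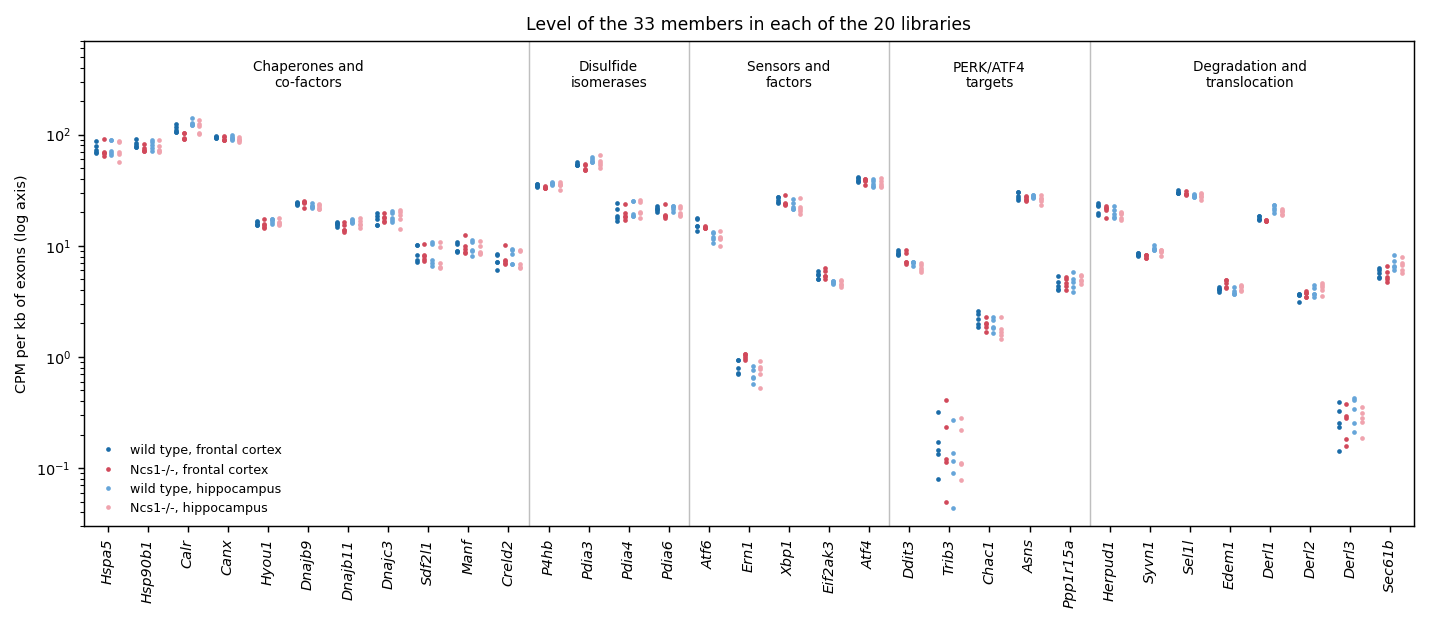
Level of each of the 33 members in the 20 libraries, in CPM per kb of exons on a log axis, ordered by role. Each point is 1 library and the 4 colours are the 4 groups. The levels span from Calr at about 100 CPM per kb to Trib3 and Derl3 below 1, and the 4 groups of a gene lie close together compared with the distances between genes.

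The first comparison asked whether loss of Ncs1 changes these genes. None of the 32 members that passed the filter on low counts was called in either region. Trib3 did not pass that filter in these comparisons. In cortex 0 of 32 members had an adjusted p under 0.05 (edgeR quasi-likelihood test, Benjamini-Hochberg over all genes), with 0.027% of 14823 genes called, and 5 of 32 members (15.6%) had an unadjusted p under 0.05, close to 14.8% of all genes. In hippocampus 0 of 32 members were called, with 0.0266% of 15042 genes called, and 0 of 32 had an unadjusted p under 0.05, against 3.78% of all genes. The limma-voom test called 0 members in either region, and DESeq2 called 1 in cortex, Calr, where it gave an adjusted p to 24 of the members and called 1.09% of all genes, and 0 in hippocampus. The median log2 fold change of the members, knockout over wild type, was -0.05 in cortex and -0.05 in hippocampus, against 0.00 and 0.01 over all genes tested. In cortex 23 of 32 members lay below 0 and in hippocampus 24 of 32, against 49.4% and 46.9% of all genes. The hippocampus median was -0.02 without knockout library 3, -0.03 without wild-type library 4 or 5, and -0.07 without knockout library 2, and the cortex median was -0.02 with the trend of the libraries with exonic length removed. Without the libraries with Ttr over 100 CPM, edgeR called 0 of 32 members in cortex, with 5 at an unadjusted p under 0.05, and 0 of 32 in hippocampus, with 2 at an unadjusted p under 0.05, a median of -0.09 and 0 of 15077 genes called. Some marker lists also lay on 1 side of 0, with 0 of their markers called. All 6 excitatory neuron markers lay below 0 in both regions (medians of -0.14 in cortex and -0.09 in hippocampus), as did all 6 astrocyte markers (-0.13 and -0.11). The choroid plexus markers tested all lay above 0 (5 with a median of 0.84 in cortex and 8 with 0.66 in hippocampus), as did 10 of 10 immediate early genes in cortex and 9 of 10 in hippocampus. Their part in the shift of the members was not tested.

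Calr had the smallest p of the members in cortex. Its gene lies on chromosome 8 at 84842088 to 84846932 (mm10). The 5 wild-type cortex libraries were at 363, 334, 302, 318 and 305 CPM, and the 5 knockout cortex libraries at 301, 261, 261, 299.9 and 267 CPM. Every knockout library was below every wild-type library, by a narrow margin between wild-type library 3 and knockout library 1. The log2 fold change was -0.22 ± 0.06 (SE), with an edgeR adjusted p of 0.219. DESeq2 gave an adjusted p of 0.0303, and without wild-type cortex library 5 the edgeR adjusted p was 0.0444, in a fit that called 3.77% of 14915 genes. In hippocampus Calr was at 404, 356, 353, 364 and 352 CPM in wild type and 359.8, 393, 290.3, 344 and 298 CPM in knockout. There the groups overlapped, since knockout library 2 exceeded all but 1 wild-type library, and the log2 fold change was -0.11 ± 0.08 (SE, edgeR adjusted p = 0.991).

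Pdia3, the isomerase that partners Calr, was at 178, 171, 169, 169 and 167 CPM in wild-type cortex and 166, 151, 149.9, 171 and 153 CPM in knockout cortex. The groups overlapped through knockout library 4, and the log2 fold change was -0.11 ± 0.04 (SE, edgeR adjusted p = 0.287). All 4 disulfide isomerases lay below 0 in cortex, from -0.14 for Pdia6 to -0.02 for Pdia4, and 3 of 4 in hippocampus. Hsp90b1 was the fifth member with an unadjusted p under 0.05 in cortex, at -0.13 ± 0.05 (SE, edgeR adjusted p = 0.288).

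Ern1 and Edem1 lay on the other side of 0. Ern1, the IRE1 sensor that splices Xbp1 RNA, was at 5.74, 6.45, 5.90, 7.69 and 7.74 CPM in wild-type cortex and 7.61, 8.62, 7.93, 8.29 and 8.71 CPM in knockout cortex. Only knockout library 1 fell within the wild-type range, and the log2 fold change was 0.30 ± 0.10 (SE, edgeR adjusted p = 0.246). In hippocampus Ern1 was at 4.65, 6.19, 5.29, 6.74 and 5.38 CPM in wild type and 4.31, 5.79, 7.47, 6.41 and 6.64 CPM in knockout, with overlapping groups and a log2 fold change of 0.12 ± 0.15 (SE, edgeR adjusted p = 0.991).

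Edem1, a lectin that hands misfolded glycoproteins to degradation, was at 25.8, 26.6, 24.97, 26.3 and 27.6 CPM in wild-type cortex and 27.0, 31.8, 31.7, 27.7 and 29.6 CPM in knockout cortex. In hippocampus it was at 23.7, 24.5, 23.5, 25.045 and 27.6 CPM in wild type and 25.3, 26.1, 28.4, 28.3 and 27.7 CPM in knockout. In each region 1 library kept the groups from separating, knockout 1 in cortex and wild-type 5 in hippocampus. The log2 fold changes were 0.17 ± 0.06 in cortex (SE, edgeR adjusted p = 0.246) and 0.13 ± 0.06 in hippocampus (SE, edgeR adjusted p = 0.991).

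The other members with the smallest p in hippocampus were Derl1, Ddit3 and Syvn1. Derl1, a channel component of ER-associated degradation, was at 73.1, 70.3, 76.8, 77.5 and 66.2 CPM in wild-type and 72.0, 68.2, 64.4, 67.8 and 63.0 CPM in knockout hippocampus, a log2 fold change of -0.11 ± 0.05 (SE, edgeR adjusted p = 0.991). Ddit3 was at 12.3, 11.4, 12.3, 11.9 and 12.3 CPM in wild-type and 12.1, 11.5, 10.8, 10.5 and 10.1 CPM in knockout hippocampus, a log2 fold change of -0.12 ± 0.07 (SE, edgeR adjusted p = 0.991). Syvn1, the ubiquitin ligase HRD1 of ER-associated degradation, was at 44.9, 44.3, 46.3, 49.3 and 45.0 CPM in wild-type and 43.9, 44.3, 42.9, 44.5 and 39.4 CPM in knockout hippocampus, a log2 fold change of -0.09 ± 0.05 (SE, edgeR adjusted p = 0.991). The groups overlapped for all 3. Ddit3 overlaps Mars1 and Syvn1 overlaps Mrpl49 on the opposite strand, and since no source says whether counting used strand, reads of the partners cannot be told apart. The same holds, here and in the relations with Hspa5 below, for Pdia6 (Atp6v1c2), Dnajb11 (Gm30505), Ppp1r15a (Tulp2) and Derl2 (Mis12).

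Hspa5, the common target of the ATF6 and XBP1 branches, differed by less than the spread between libraries. Its log2 fold change was -0.06 ± 0.09 in cortex and -0.06 ± 0.13 in hippocampus (SE, edgeR adjusted p = 0.799 and 0.991), and 2 standard errors on either side ran from -0.24 to 0.13 in cortex and from -0.31 to 0.20 in hippocampus. Hspa5 lies on chromosome 2 at 34772090 to 34776530 (mm10), 3.48 Mb from Ncs1. Atf4, whose protein is mainly set by translation and not by RNA level, was at -0.03 ± 0.05 in cortex and 0.01 ± 0.06 in hippocampus (SE, edgeR adjusted p = 0.745 and 0.996). Xbp1 was at -0.08 ± 0.06 and -0.06 ± 0.09 (SE, edgeR adjusted p = 0.571 and 0.991). Counts per gene do not separate spliced from unspliced Xbp1.

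**Figure D2:**
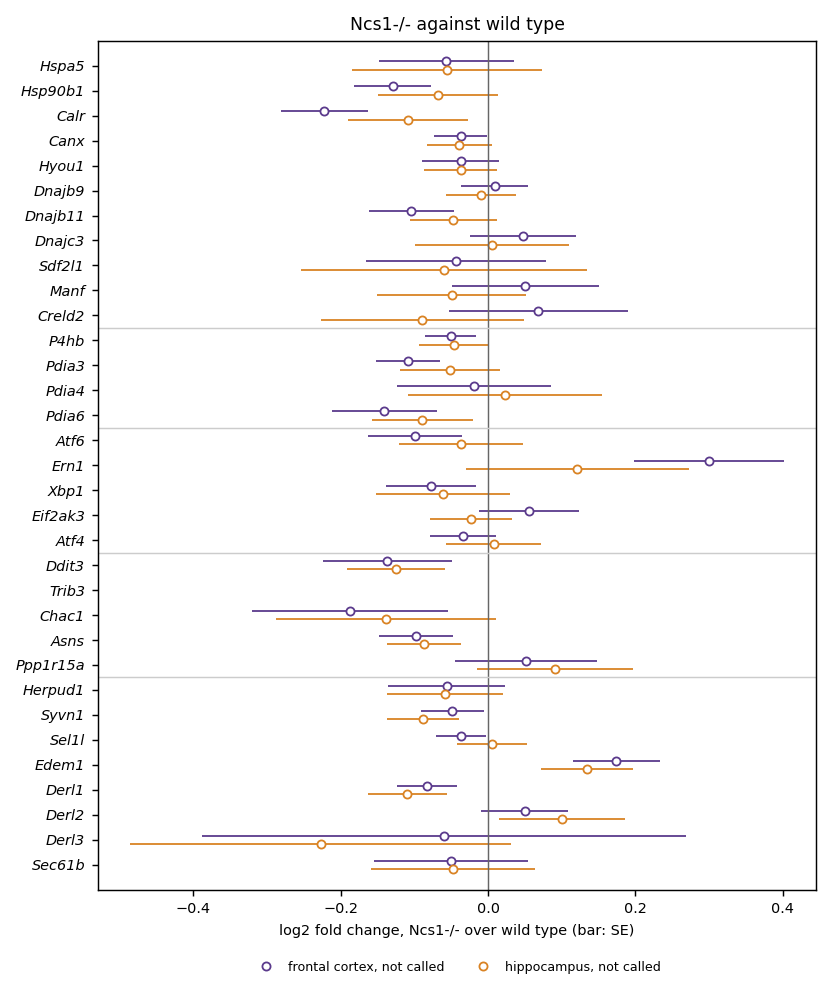
Log2 fold change of each member in knockout over wild type, with its standard error, in frontal cortex and hippocampus (5 against 5 libraries each). All points are open because no member had an adjusted p under 0.05. Calr is the lowest point with a short bar in cortex at -0.22, Ern1 the highest at 0.30, and Trib3 has no point.

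The interaction asked whether the genotype difference depended on region. It was tested for all 33 members over the 20 libraries. The edgeR test called 0 of 33 members, with 0% of 15310 genes called, and 0 of 33 had an unadjusted p under 0.05, against 1.4% of all genes. DESeq2 and limma-voom also called 0 members, and edgeR called 0 of 33 without the libraries with Ttr over 100 CPM. Ern1 had the smallest p of the members, with a difference of log2 fold changes of -0.19 ± 0.18 (SE, edgeR adjusted p = 0.9998), hippocampus minus cortex.

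No other gene of the pathway was called for genotype. Of 116 such genes in 5 lists, 113 were tested, and edgeR called 0 of them in either region. In cortex 18 of 113 (15.9%) had an unadjusted p under 0.05, close to 14.8% of all genes. In hippocampus 7 of 113 (6.19%) did, against 3.78% of all genes. Rpn1, a subunit of the oligosaccharyl transferase that attaches sugars to new proteins, was at -0.15 ± 0.04 in cortex and -0.12 ± 0.04 in hippocampus (SE, edgeR adjusted p = 0.229 and 0.991). Atf6b, the ATF6 paralog, was at -0.18 ± 0.06 in hippocampus (SE, edgeR adjusted p = 0.991).

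The second comparison set hippocampus against frontal cortex within each genotype. In wild type 8 of 32 members (25%) were called, below the 39.5% of 14849 genes called, 3 of them higher in hippocampus, with 18.8% of genes called higher, and 5 lower, with 20.7% called lower. In knockout 6 of 32 members (18.8%) were called, below the 38.8% of 15032 genes called, 2 higher, with 19.2% of genes called higher, and 4 lower, with 19.6% called lower. The members called in both genotypes were Derl1 and Calr, which were higher in hippocampus, and Atf6, Eif2ak3 and Ddit3, which were lower. They make up 62.5% of the wild-type calls and 83.3% of the knockout calls. The median log2 fold change of the members, hippocampus over cortex, was 0.01 in wild type and -0.01 in knockout, against 0.01 and 0.01 over all genes. Over the alternatives it lay between -0.04 and 0.04 in wild type and between -0.07 and 0.07 in knockout, and so took both signs.

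The 5 sensors and factors all lay below 0 in both genotypes, 3 of 5 were called in each, and their median log2 fold change was -0.21 in wild type and -0.29 in knockout. Their summed level was 342 to 383 CPM in wild-type cortex against 296 to 322 CPM in wild-type hippocampus. In knockout it was 339.6 to 354 against 282 to 314 CPM. The sums did not overlap between the regions in either genotype. Atf6 was the largest part of the sum, with means of 145 CPM in wild-type cortex and 112 CPM in wild-type hippocampus. Taken alone, Ern1, Xbp1 and Atf4 overlapped between the regions in wild type, while Atf6 and Eif2ak3 did not. Of the 17 sensors and factors tested among the other pathway genes, 14 lay above 0 and 3 below in wild type. Their median log2 fold change was 0.06, with 1 called higher and 2 lower. In knockout 11 of these lay above 0 and 6 below, with a median of 0.03, 1 called higher and 3 lower. For the 11 chaperones and co-factors the median was 0.01 (wild type) and 0.02 (knockout), and Calr was the 1 called in each. The 4 disulfide isomerases also lay on 1 side, from 0.01 to 0.10 in wild type and from 0.06 to 0.16 in knockout, and edgeR called 0 of them, Pdia3 being the 1 isomerase with an unadjusted p under 0.05 (0.0332 and 0.0401).

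Atf6, the sensor that is cut in the Golgi to release a transcription factor, lies on chromosome 1 at 170704457 to 170867772 (mm10). In wild type it was at 125, 139.6, 164, 138 and 161 CPM in cortex and 97.2, 107, 120.1, 124 and 111 CPM in hippocampus. In knockout it was at 134, 139.5, 135, 137 and 133 CPM in cortex and 91.8, 106, 125, 110.4 and 109 CPM in hippocampus. Every hippocampus library was below every cortex library of its genotype. The log2 fold changes were -0.40 ± 0.08 in wild type (SE, edgeR adjusted p = 0.00205) and -0.33 ± 0.07 in knockout (SE, edgeR adjusted p = 0.00122).

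Eif2ak3, the PERK kinase, lies on chromosome 6 at 70844515 to 70905242 (mm10). In wild type it was at 30.3, 32.9, 35.6, 30.1 and 33.5 CPM in cortex and 29.2, 28.1, 29.3, 27.2 and 28.2 CPM in hippocampus. In knockout it was at 30.3, 35.9, 32.4, 32.5 and 37.8 CPM in cortex and 25.7, 27.4, 26.8, 29.7 and 29.3 CPM in hippocampus. The regions did not overlap in either genotype. The log2 fold changes were -0.21 ± 0.06 (SE, edgeR adjusted p = 0.00906) and -0.29 ± 0.07 (SE, edgeR adjusted p = 0.00435).

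Ern1 was lower in hippocampus in knockout, where the libraries given above for the 2 regions did not overlap, at -0.44 ± 0.13 (SE, edgeR adjusted p = 0.0164). In wild type the regions overlapped and the value was -0.26 ± 0.13 (SE, edgeR adjusted p = 0.125), a difference between genotypes that the interaction test above did not call. Xbp1 was at 83.2, 81.2, 79.0, 90.2 and 89.97 CPM in wild-type cortex and 70.2, 73.0, 69.8, 79.4 and 86.3 CPM in wild-type hippocampus. In knockout it was at 75.1, 78.1, 78.0, 92.9 and 76.7 CPM in cortex and 63.0, 72.9, 69.9, 88.0 and 67.3 CPM in hippocampus. The regions overlapped in both genotypes, and the log2 fold changes were -0.18 ± 0.06 in wild type (SE, edgeR adjusted p = 0.0466) and -0.16 ± 0.09 in knockout (SE, edgeR adjusted p = 0.169).

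Ddit3 was at 15.6, 14.4, 14.2, 15.0 and 14.49 CPM in wild-type cortex, above all 5 wild-type hippocampus libraries, which stood at 12.3 CPM or less. In knockout cortex it was at 11.7, 12.3, 12.3, 15.8 and 14.9 CPM, where library 1 fell within the knockout hippocampus range and libraries 2 and 3 lay just above it. The log2 fold changes were -0.31 ± 0.06 in wild type (SE, edgeR adjusted p = 0.000807) and -0.29 ± 0.10 in knockout (SE, edgeR adjusted p = 0.0291). The other targets of the PERK branch that were tested, Chac1, Asns and Ppp1r15a, were not called in either genotype, with edgeR adjusted p of at least 0.245.

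Among the degradation genes Derl1 was higher in hippocampus. It lies on chromosome 15 at 57869502 to 57892419 (mm10) and was at 62.1, 56.6, 58.0, 61.5 and 57.7 CPM in wild-type cortex and 56.9, 55.1, 56.5, 55.1 and 55.3 CPM in knockout cortex. All of these were below the hippocampus libraries given above. The log2 fold changes were 0.28 ± 0.05 in wild type (SE, edgeR adjusted p = 0.000563) and 0.26 ± 0.04 in knockout (SE, edgeR adjusted p = 0.000429).

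Syvn1 and its partner Sel1l, which together form the core of the ligase, were called in opposite directions in wild type. Syvn1 was at 41.5, 41.7, 40.5, 40.5 and 39.3 CPM in wild-type cortex and 40.2, 37.9, 37.8, 40.5 and 40.1 CPM in knockout cortex. Its log2 fold change was 0.16 ± 0.04 in wild type, where the regions did not overlap (SE, edgeR adjusted p = 0.00867), and 0.12 ± 0.05 in knockout, where they did (SE, edgeR adjusted p = 0.0614). Sel1l was at 257, 256, 260.1, 254 and 270.1 CPM in wild-type cortex and 238, 234, 236, 243 and 250.01 CPM in wild-type hippocampus, which did not overlap. In knockout it was at 247, 249.8, 248, 267 and 252 CPM in cortex and 221, 234, 248, 256 and 240.5 CPM in hippocampus, which did. Its log2 fold changes were -0.13 ± 0.04 (SE, edgeR adjusted p = 0.016) and -0.08 ± 0.05 (SE, edgeR adjusted p = 0.188).

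Calr was higher in hippocampus by 0.16 ± 0.06 in wild type (SE, edgeR adjusted p = 0.0459) and by 0.27 ± 0.08 in knockout (SE, edgeR adjusted p = 0.0187) on the log2 scale. The regions overlapped in both genotypes. In wild type its call was lost without any 1 of cortex libraries 2 to 5 or hippocampus libraries 1, 4 and 5 (edgeR adjusted p from 0.0515 to 0.107), with upper-quartile scaling (0.0599), with all 20 libraries in 1 fit (0.074) and with the exonic length trend removed (0.0947), and in knockout without cortex library 2 or 3 (0.0508 and 0.0504). The wild-type call of Xbp1 was lost without any 1 of cortex libraries 1, 2, 4 and 5 or hippocampus libraries 1 to 3 (0.0523 to 0.115) and under 5 settings of scaling, filter or fit (0.0505 to 0.121). That of Sel1l was lost without hippocampus library 2 (0.0573), scaled by total counts only (0.0524), and with the exonic length trend removed, where its log2 fold change was -0.07 (0.112). The knockout call of Ddit3 was lost without cortex library 4 or 5 or hippocampus library 4 or 5 (0.0662 to 0.0876). In knockout Syvn1 was called under 4 of 22 alternatives of scaling, filter, test and libraries, and Xbp1 under 3 of 22. Among these were the fits without hippocampus library 5 for Syvn1 (0.019) and library 4 for Xbp1 (0.0202).

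Without the libraries with Ttr over 100 CPM, 7 members were called in wild type, all but Calr (edgeR adjusted p = 0.0662), and 6 in knockout, which is 21.9% and 18.8% of the members against 37% and 30.9% of all genes in these fits. Of the 6 knockout calls 3 were shared with the full set, Atf6, Eif2ak3 and Derl1. In that set Ddit3, Ern1 and Calr had edgeR adjusted p of 0.0608, 0.0669 and 0.0779, and Xbp1, Herpud1 and Sdf2l1 were called. Atf6, Eif2ak3 and Derl1 were called in both genotypes under each of 22 alternatives of scaling, filter, test and libraries. Marker lists differed between the regions as well. All 8 striatal markers were lower in hippocampus in both genotypes, as were 5 of 6 interneuron markers and 7 of 8 markers of cortical layers, while 3 of 6 oligodendrocyte and 3 of 6 astrocyte markers were higher and 1 astrocyte marker was lower. Of the 10 immediate early genes 5 were lower in wild type and 9 in knockout. Their part in the differences of the members was not tested.

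**Figure D3:**
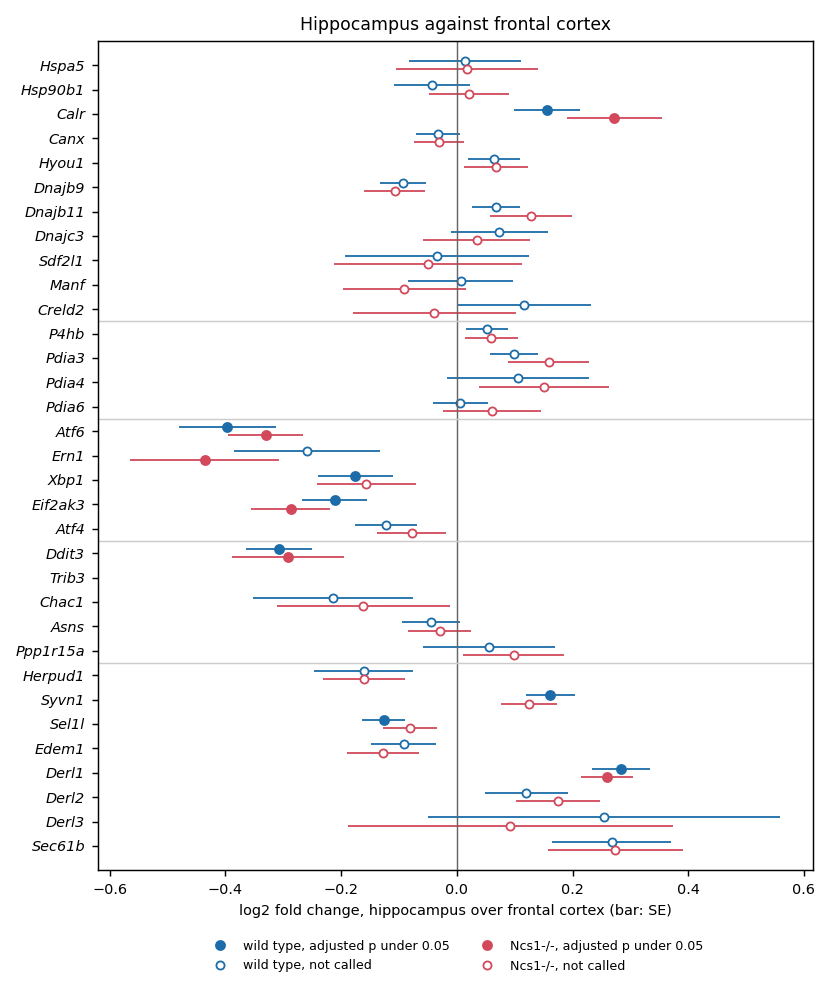
Log2 fold change of each member in hippocampus over frontal cortex, with its standard error, in wild type and knockout (5 against 5 libraries each), filled where the adjusted p was under 0.05. The 5 sensors and factors, Atf6 to Atf4, all sit below 0, Derl1 and Calr are filled above 0, and most chaperones sit near 0.

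Other genes of the pathway were called about as often as all genes. In wild type 45 of 113 (39.8%) were called, 30 higher and 15 lower in hippocampus, and in knockout 43 of 113 (38.1%), 33 higher and 10 lower. Map3k5, the kinase ASK1 that acts downstream of IRE1, was lower by -0.86 ± 0.06 in wild type (SE, edgeR adjusted p = 2.31e-07), and Spcs3, a signal peptidase subunit, by -0.55 ± 0.05 (SE, edgeR adjusted p = 1.57e-06). Ube2g2, a ubiquitin-conjugating enzyme of ER-associated degradation, was higher by 0.54 ± 0.05 in wild type (SE, edgeR adjusted p = 2.10e-06). Stc2, a stanniocalcin gene induced by ATF4, was higher by 1.59 ± 0.19 in knockout (SE, edgeR adjusted p = 1.39e-05). In the list of translocation and glycosylation genes 9 of 23 were higher and 3 lower in wild type, and 13 of 23 higher and 2 lower in knockout. Of all genes 18.8% were called higher and 20.7% lower in wild type, and 19.2% and 19.6% in knockout. Among the 5 lists this one had the most genes called higher. The list of other folding genes had 5 of 23 higher and 4 lower in wild type, and 5 and 2 in knockout.

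The third question was how the members varied among libraries of 1 group. The standard deviation within groups was 0.21 in cortex and 0.35 in hippocampus on the log2 scale for Sdf2l1, 0.21 and 0.24 for Creld2, 0.20 and 0.24 for Pdia4, 0.18 and 0.18 for Manf and 0.18 and 0.24 for Hspa5. It was 0.05 and 0.05 for Canx, 0.03 and 0.07 for P4hb, 0.04 and 0.06 for Sel1l and 0.04 and 0.07 for Syvn1. Sdf2l1 and Creld2 had means of 210 and 239 counts per library, Hspa5 of 7145. Other chaperones varied less, with 0.09 and 0.07 for Hyou1, 0.06 and 0.06 for Dnajb9, 0.09 and 0.09 for Dnajb11 and 0.09 and 0.14 for Hsp90b1. Ern1 at 0.15 and 0.25, Chac1 at 0.18 and 0.22, Ppp1r15a at 0.16 and 0.18 and Sec61b at 0.16 and 0.18 varied about as much as Manf, at means of 149, 73.0, 317.5 and 180.5 counts. Trib3 and Derl3, at means of 7.8 and 13.0 counts, varied more on this scale at a depth that gives little precision.

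Hspa5 was at 293, 306, 292, 333 and 369 CPM in wild-type cortex and at 271, 288, 289, 389.5 and 292 CPM in knockout cortex. In hippocampus it was at 299.7, 291, 279.9, 379.9 and 375 CPM in wild type and at 241, 361, 284, 373 and 295 CPM in knockout. Knockout cortex library 4 and wild-type cortex library 5 were high in cortex, and in hippocampus libraries 4 and 5 of the wild type and 2 and 4 of the knockout stood apart from the other 6.

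Pdia4, a disulfide isomerase, was at 42.8, 40.2, 44.3, 51.6 and 58.0 CPM in wild-type cortex and at 40.6, 43.5, 47.1, 57.1 and 44.8 CPM in knockout cortex. In hippocampus it was at 44.2, 44.3, 46.2, 61.2 and 61.1 CPM in wild type and at 42.5, 59.4, 47.7, 62.4 and 47.9 CPM in knockout. Its high libraries were those of Hspa5 in each group. Manf, a secreted ER-resident factor with neurotrophic activity, was at 31.7, 31.5, 30.9, 36.5 and 38.0 CPM in wild-type cortex and at 30.1, 33.2, 31.1, 44.4 and 35.4 CPM in knockout cortex. In hippocampus it was at 28.8, 31.9, 32.6, 39.6 and 37.8 CPM in wild type and at 31.2, 34.8, 30.1, 38.7 and 29.6 CPM in knockout. The highest library of each group was 1 of the high libraries of Hspa5.

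Over the deviations of 10 libraries from their genotype mean, the Pearson r with Hspa5 passed 0.7 for 9 of 32 members in cortex, against 2.67% of 15309 genes, and for 11 of 32 in hippocampus, against 3.14%. The limit of 0.7 was chosen after the values were seen. The median r of the members was 0.37 in cortex and 0.40 in hippocampus, and over all genes 0.00 and -0.02. The members over the limit in both regions were 7, namely Xbp1, Pdia4, Manf, Sdf2l1, Creld2, Dnajc3 and Pdia6. In addition Sel1l and Dnajb11 passed in cortex, and Hyou1, Hsp90b1, Herpud1 and Derl2 in hippocampus. The regions may not be independent here, since Hspa5 had r = 0.77 between same-numbered libraries of the regions. Whether such libraries share a mouse is not stated. With p-values adjusted over all genes, 0 relations passed 0.05 in either region (exact permutation within genotype, two-sided). Unadjusted, 8 of 32 members in cortex and 12 of 32 in hippocampus had p under 0.05, against 1412 and 1572 of 15309 genes.

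In cortex Manf had r = 0.96 and rho = 0.83 with Hspa5 (exact permutation p = 0.000486 and 0.00813, adjusted p of r = 0.375 over all genes). Xbp1 had r = 0.95 and rho = 0.75 (exact permutation p = 0.00396 and 0.0248, adjusted p of r = 0.406), and Creld2, a chaperone-like protein, r = 0.93 and rho = 0.78 (exact permutation p = 0.00111 and 0.013, adjusted p of r = 0.375). Without the 2 libraries farthest from the median of Hspa5, r was 0.86 for Manf, 0.86 for Xbp1, 0.79 for Creld2, 0.77 for Sdf2l1, 0.73 for Pdia4 and 0.54 for Dnajc3. It fell to 0.35 for Pdia6, 0.24 for Dnajb11 and -0.21 for Sel1l. Those 2 libraries were knockout library 4 and wild-type library 5. Without knockout library 4 alone these 3 members no longer passed 0.7, and without wild-type library 5 alone they did.

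In hippocampus Pdia4 had r = 0.97 and rho = 0.90 with Hspa5 (exact permutation p = 0.00229 and 0.00257, adjusted p of r = 0.394 over all genes). Dnajc3, the co-chaperone p58IPK that also restrains PERK, had r = 0.91 and rho = 0.87 (exact permutation p = 0.00167 and 0.005, adjusted p of r = 0.394). Since the hippocampus libraries fell into 6 with lower and 4 with higher Hspa5, r was also taken within the 6. This split was seen in the data and is not a group of the study. The 6 were chosen on Hspa5 itself, which narrows its range, so these values are a description. They were 0.87 for Dnajc3, 0.79 for Pdia4, 0.76 for Xbp1, 0.48 for Pdia6, -0.30 for Sdf2l1, -0.60 for Manf and -0.61 for Creld2. Within the 6, r passed 0.7 for 8 of 32 members and 15.8% of all genes, and over 6 libraries it carries little precision.

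Of the 4 hippocampus libraries with high Hspa5, 3 were those with Ttr over 100 CPM. The choroid plexus list of 8 genes, none of them at 0 in a hippocampus library, summed to 797 to 5531 CPM in these 3 and to 151 to 218 CPM in the other 7, wild-type library 5 with its high Hspa5 among them. Its r with Hspa5 was 0.70 in hippocampus and -0.45 in cortex (rho 0.65 and -0.52, exact permutation p of r = 0.0418 and 0.207, adjusted p = 0.376 and 0.534 over 32 relations with markers, depth and Rn45s). Without the 3 libraries, r with Hspa5 passed 0.7 for 8 of 32 members in hippocampus, against 11.67% of all genes over these 7 libraries. They were Dnajc3, Sdf2l1, Pdia4 and Xbp1 at 0.85, 0.72, 0.92 and 0.92, with Herpud1, Sel1l, Edem1 and Derl2. Of the 7 members shared between the regions, Pdia6 at 0.65, Manf at 0.52 and Creld2 at 0.39 did not pass. In cortex, without knockout library 1, it passed for 10 of 32, against 3.325% of all genes. None of the 32 relations had an adjusted p of r under 0.05, by the exact permutation test. Besides that of choroid plexus, 2 had an unadjusted p of r under 0.05, both in cortex. They were blood markers, with r = -0.77 and rho = -0.81 (exact permutation p = 0.00201 and 0.00861, adjusted p of r = 0.0644, r = -0.58 without the 2 farthest libraries), and excitatory neuron markers, with r = -0.64 and rho = -0.50 (exact permutation p = 0.0499 and 0.166, adjusted p of r = 0.376, r = -0.10 without the 2 farthest). The Rn45s share had r = -0.46 and rho = -0.73 in cortex (exact permutation p = 0.251 and 0.0297), and r = -0.78 without the 2 farthest. Striatal markers had r = 0.69 in cortex and 0.62 in hippocampus (exact permutation p = 0.0539 and 0.0752). Without the 2 farthest libraries these were 0.25 and 0.67. The striatal sum was highest of its group in wild-type cortex library 5 (1336 CPM) and knockout cortex library 4 (1496 CPM). Its part was not tested.

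**Figure D4:**
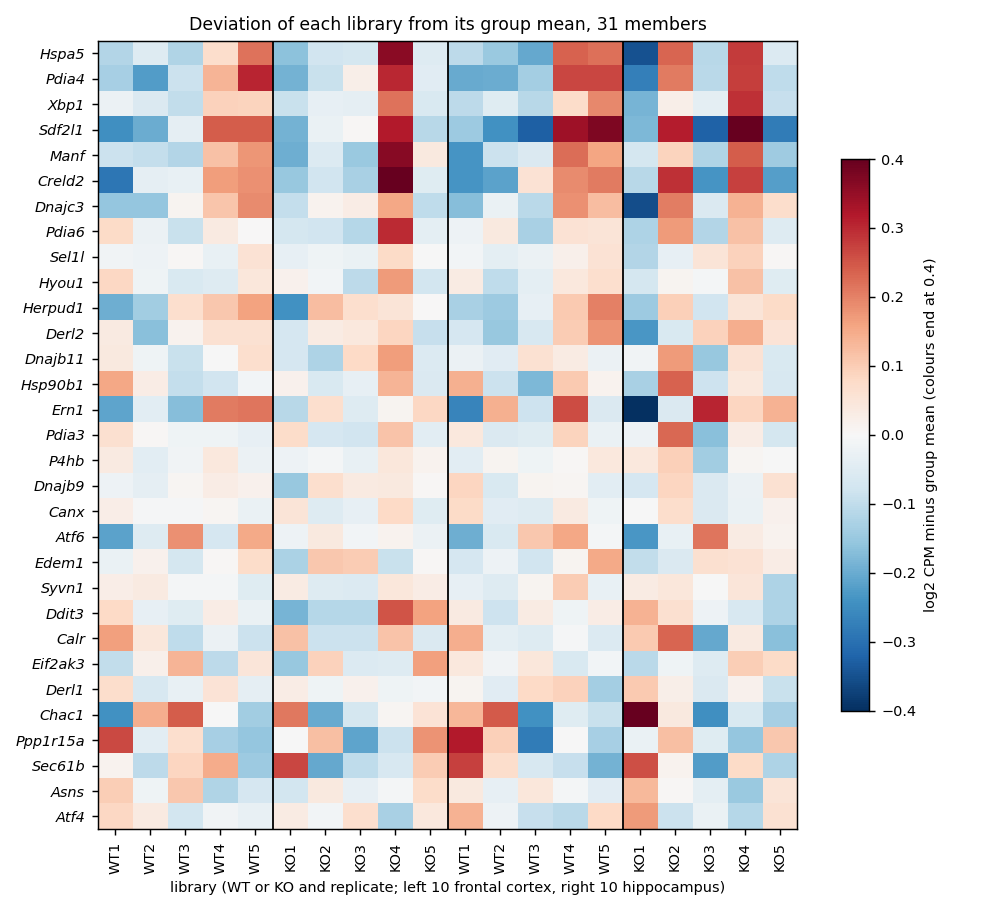
Deviation of each library from the mean of its group on the log2 CPM scale, for 31 members ordered by their mean r with Hspa5 over the 2 regions, with Trib3 and Derl3 left out for their low counts. Red is above and blue below the group mean. Hspa5 and the 7 members over 0.7 in both regions are at or above their group mean together in wild-type libraries 4 and 5 and knockout library 4 of both regions and in knockout hippocampus library 2, while Canx, P4hb and Syvn1 stay pale.

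For members of the PERK and ATF4 branch, whether r with Hspa5 differed from that of other members was not tested. Atf4 was at 98.4, 95.4, 88.5, 92.0 and 91.1 CPM in wild-type and 92.8, 89.9, 95.1, 82.9 and 93.4 CPM in knockout cortex, and its lowest library was knockout 4, the highest for Hspa5. Its r with Hspa5 was -0.69 in cortex and -0.53 in hippocampus (rho -0.38 and -0.55, exact permutation p of r = 0.0681 and 0.143, adjusted p = 0.567 and 0.549 over all genes), and -0.14 and -0.29 without the 2 farthest libraries. Asns had r = -0.36 and -0.70, Chac1 -0.21 and -0.35, and Ppp1r15a, the phosphatase subunit GADD34, -0.49 and -0.08 in cortex and hippocampus. Eif2ak3 itself had r = -0.06 and 0.26, and Trib3, close to the detection limit, 0.27 and 0.09. Values below 0 in both regions were also found outside the branch, for Derl1 (-0.24 and -0.20) and Sec61b (-0.34 and -0.36). Ddit3 had r = 0.61 in cortex and -0.25 in hippocampus, and with the exonic length trend removed 0.72 and 0.34. Of the values without that correction, 0 passed adjustment over all genes.

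Among the promoters shown at the start, members with and without the full element were found on both sides of the limit on r, which was not tested. Besides Hspa5 8 members held it, and r passed 0.7 in cortex for 3 of them, Dnajc3, Creld2 and Pdia6, and in hippocampus for these and Hsp90b1. In cortex the others were Calr at 0.05, Canx at 0.33, Syvn1 at 0.03, Hsp90b1 at 0.31 and Derl3 at 0.34. Xbp1, Pdia4 and Sdf2l1 held no full element in the window and had r of 0.95, 0.91 and 0.87 in cortex, and Manf had no promoter to search. That no match was found says only that these letters are not in the window.

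**Figure D5:**
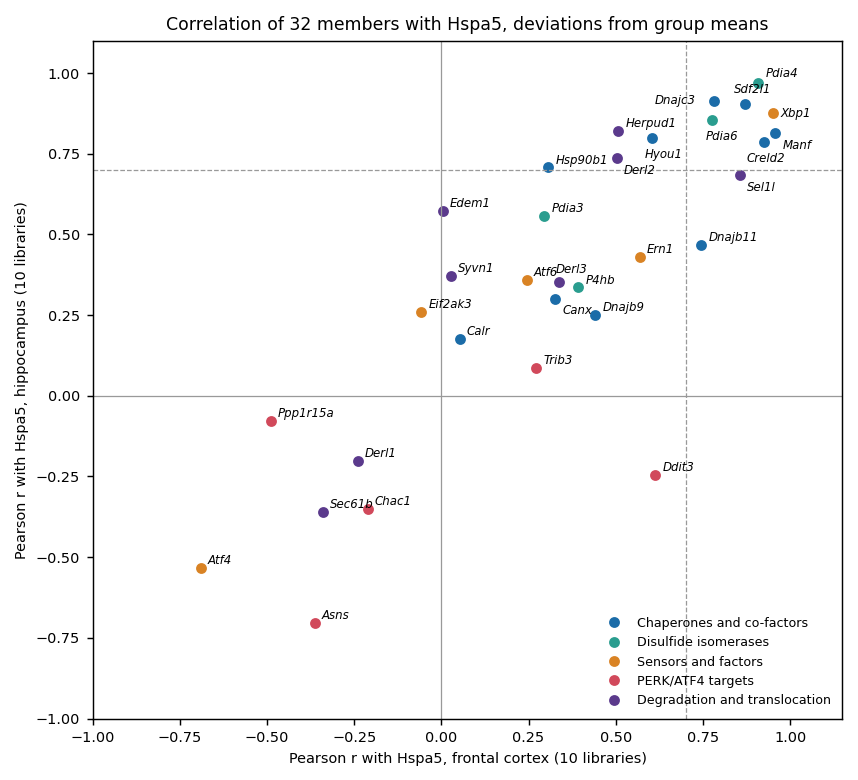
Pearson r with Hspa5 over deviations from group means, frontal cortex on the horizontal and hippocampus on the vertical axis, 10 libraries each, for 32 members coloured by role. Dashed lines mark 0.7. The 7 members in the upper right corner are Xbp1, Pdia4, Manf, Sdf2l1, Creld2, Dnajc3 and Pdia6, and Atf4 and Asns lie at the lower left.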

How the data were processed

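Total RNA of flash-frozen frontal cortex and hippocampus was isolated on RNeasy Mini columns (labels' protocols) and sequenced in 20 libraries. The authors deposited expected counts per gene, 1 table per region. The unit was read from the values, of which 22.6% to 27.3% per library were more than 0.001 from a whole number. STAR 2.7.3a, Partek and mm10 are named in the submitters' processing notes. Neither annotation, nor strand setting, nor filter is stated there. Positions are those of the deposited tables.

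Expected counts were rounded and tested in edgeR 4.0.16 (R 4.3.3) with filterByExpr, TMM scaling and quasi-likelihood tests, adjusted over all genes by the Benjamini-Hochberg method at 0.05. Only the groups compared entered a fit, and all 20 libraries the interaction. A standard error is the absolute log2 fold change divided by the square root of F. Log2 CPM used a prior count of 2. Exonic length came from GENCODE release M21 and promoters from RefSeq (GRCm38.p6). Replicate libraries differed by more than sampling noise, with a chi-square of at least 3.55 per degree of freedom, so each was counted once. Alternatives included DESeq2 1.42.0 and limma-voom (limma 3.58.1). The methods were tested on simulated data.

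The members, the lists and the naming rule were chosen with earlier results of these data known. Values per library were given for members with an adjusted p under 0.05 in any comparison and for the 4 with the smallest p in each genotype comparison. Values per library of Hspa5, Pdia4, Manf and Atf4, the Herpud1 and Asns windows, the limit of 0.7 on r, the split of the hippocampus libraries, and 2 alternatives (libraries with Ttr over 100 CPM left out, and a lowess trend with exonic length removed) were added after the data were seen. Correlations were planned with adjustment over the members, and were adjusted over all genes instead. The other pathway genes named are among the 3 with the smallest p in a comparison.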

Additional observations from a re-analysis of the deposited data

Results flagged for a closer look

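Within each group of 5 libraries, the highest or lowest value was set against the rest with Dixon's ratio (critical value 0.71) for 20 genes in 4 groups, 80 groups in all, and 10 passed. The 20 genes were the members picked by the naming rule, Hspa5, the 7 members with r over 0.7 with it in both regions, Ncs1 and Ttr. Chance flags about 1 in 20 groups, but many of these genes were picked on the same libraries. Genes that move together are also not independent, so the count of flags cannot be set against that rate.

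Knockout cortex library 4 stood above the other 4 of its group for Hspa5 at 389.5 CPM (others 271 to 292), Xbp1 at 92.89 CPM (75.08 to 78.14), Creld2 at 13.92 CPM (9.41 to 10.1), Pdia6 at 89.27 CPM (67.1 to 70.6) and Sel1l at 266.5 CPM (247 to 252). Wild-type hippocampus library 1 was high for Calr at 403.9 CPM (352 to 364). Wild-type hippocampus library 3 was high for Ncs1 at 470.9 CPM (427 to 438).

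For Ttr, knockout cortex library 1 stood at 206.7 CPM (0.105 to 1.76), wild-type hippocampus library 4 at 2000.0 CPM (4.89 to 18.3) and knockout hippocampus library 2 at 3119.0 CPM (2.96 to 319.6).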

How the results depend on the processing

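Between 21 and 22 alternatives were run for each named gene and comparison, and 0 changed direction, while 525 kept their side of the threshold, 36 lost a call and 10 gained one. The count of members called for genotype in cortex was 0, and 1 with DESeq2 (Calr), and from 0 to 1 with each library left out (1 without wild-type library 5, with 3.77% of all genes called). For hippocampus the count was 0 with each library left out, for the wild-type regions 6 to 8, for the knockout regions 5 to 9 and for the interaction 0. For the wild-type regions these counts were 18.8% to 25% of members, against 35.8% to 38.7% of all genes. For the knockout regions they were 15.2% to 28.1% of members, against 33.6% to 39.8% of all genes. With the exonic length trend taken out, the wild-type regions gave 11 members in place of 8, with 6 of the 8 kept. That is 34.4% of members against 40.8% of all genes. The knockout regions then gave 10 members in place of 6, with Dnajb9, Atf4, Herpud1 and Derl2 besides those 6, against 41.1% of all genes. The cause was not tested. The number of members with r over 0.7 with Hspa5 was 7 to 11 in cortex and 9 to 12 in hippocampus with each library left out. The share of all genes over 0.7 ran from 2.293% to 6.715% in cortex and from 2.436% to 8.015% in hippocampus. It was highest without knockout cortex library 4, where 7 members passed, and without knockout hippocampus library 3, where 11 did.

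With the replicate number as a block, the counts were 0 for genotype in cortex, 0 in hippocampus, 12 for the wild-type regions (37.5% of members against 44.6% of all genes), 9 for the knockout regions (28.1% against 41.6%, without Ddit3 at an edgeR adjusted p of 0.0548) and 0 for the interaction. The numbers did not meet the rule for pairing. The lowest correlation of same-numbered libraries was -0.06 for genotype in cortex, -0.00407 in hippocampus, 0.08 for the wild-type and -0.14 for the knockout regions. In wild type, though, each of the 5 libraries correlated best with its own number, a hint from the data and not the design. Depth limits Trib3 and Derl3, at 2 to 21 counts per library, and the median standard error of the members was 0.06 in cortex and 0.08 in hippocampus on the log2 scale for genotype.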

Other observations

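The title of each library carries a number, and the libraries high in Hspa5 had numbers in common between the regions, which was noticed after the values were seen. Over 10 pairs of cortex and hippocampus libraries of the same genotype and number, the deviations of Xbp1 from the group mean had r = 0.94 and rho = 0.85 (exact permutation within genotype, p = 0.00132 and 0.0066, adjusted p of r = 0.3 over all genes), and r = 0.91 without the 2 farthest pairs. Herpud1 had r = 0.84, Pdia4 0.83, Sdf2l1 0.79, Hspa5 0.77, Manf 0.76 and Creld2 0.71. In all 7 of 33 members passed 0.7, against 6.917% of 15310 genes. The median r was 0.46 over the members and 0.23 over all genes, and 71.03% of all genes had a positive r. No gene passed adjustment over all genes. Ddit3 had r = -0.69 (rho -0.61, exact permutation p = 0.131 and 0.171). The labels do not say whether libraries of the same number came from 1 mouse.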
